A study of Mus musculus with 18 samples.

Results

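The 10 genes described here encode transcription factors of the naive state of mouse embryonic stem cells (ESCs): *Zfp42*, *Nr0b1*, *Esrrb*, *Nr5a2*, *Tfcp2l1*, *Klf2*, *Klf4*, *Klf5*, *Prdm14* and *Tbx3*. They were chosen by gene symbol, with no filter on their signals, out of 19938 genes with a symbol of their own. Earlier results of these data were known when these 10 genes were chosen. Each was represented by 1 of the 35512 probe sets of the array, of which 21789 carried a single symbol. Transcript levels were read on Affymetrix Mouse Gene ST arrays, and the deposited values are log2 signals, so that a difference of 1 is a 2-fold difference. The arrays compared 3 ESC lines of the J1 background (129Sv/Jae). TKO cells lack *Dnmt1*, *Dnmt3a* and *Dnmt3b* and so every DNA methyltransferase known to be active in these cells, *Dnmt1*-/- cells lack the methyltransferase that copies methylation onto newly made DNA, and wild type (wt) cells carry all 3 genes. Each line was sampled as undifferentiated ESCs at day 0 and as embryoid bodies (EBs) at day 4 and day 16, made by the hanging drop method without leukemia inhibitory factor (LIF). EBs are aggregates in which ESCs turn into a mixture of embryonic and extraembryonic cell types. Each of the 9 groups had 2 arrays, which the labels call biological replicates, and each genotype was a single line, so that a difference between genotypes cannot be told apart from a difference between lines.

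Array medians ran from 5.77 to 5.90, and arrays of a group correlated across probe sets with r between 0.981 and 0.991. *Dnmt1* read 8.40 to 8.86 on the 12 arrays of TKO and *Dnmt1*-/- cells, against 9.16 to 9.77 on the 6 wt arrays. At day 0, *Dnmt3a* read 7.43 to 7.65 in TKO ESCs, against 8.87 to 9.45 in wt ESCs, and *Dnmt3b* read 7.33 to 7.45 in TKO ESCs, against 9.80 to 10.002 in wt ESCs. At day 0 all 3 genes were thus lower in the lines that lack them than in wt ESCs, and *Dnmt1* stayed so. *Dnmt3a* stayed lower too, at 7.13 to 7.15 in TKO EBs of day 4, against 7.96 to 8.31 in wt EBs. At day 16 it read 6.45 to 6.67 in TKO EBs, against 8.53 to 8.95 in wt EBs. *Dnmt3b* at day 16, however, read 7.52 to 7.71 in TKO EBs, against 7.16 to 7.41 in wt EBs. Probes outside a deleted exon can still hold signal, and where the probes lie was not given in the sources used here. Markers of mesenchyme, which would include fibroblast feeder cells, had a mean log2 signal of 5.54 to 5.69 on all 6 arrays of day 0.

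Naive ESCs are held by a network in which 3 inputs meet: LIF acts through Stat3, Wnt signalling relieves the repressor Tcf7l1, and a low level of FGF and ERK signalling keeps cells from moving on. *Klf4* and *Tfcp2l1* are known targets of Stat3, *Esrrb* of the Wnt branch, and *Klf2* is sustained when ERK signalling is low. The factors of this network bind one another's enhancers and are switched off together when ESCs leave the naive state, before lineage genes come on. In normal cells, DNA methylation is laid down on the promoters of several pluripotency genes in the course of differentiation.

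The windows upstream of 3 members are shown because methylation by the missing enzymes falls on CpG dinucleotides and because these promoters differ in how many they hold. The sequences are those of RefSeq (GRCm38.p6), cover the 250 bases before the annotated start and are written 5′ to 3′ on the strand of the gene, with each CpG in capitals. Methylation itself was not measured on these arrays.
Zfp42 upstream window, chr8:43307010-43307259, minus strand: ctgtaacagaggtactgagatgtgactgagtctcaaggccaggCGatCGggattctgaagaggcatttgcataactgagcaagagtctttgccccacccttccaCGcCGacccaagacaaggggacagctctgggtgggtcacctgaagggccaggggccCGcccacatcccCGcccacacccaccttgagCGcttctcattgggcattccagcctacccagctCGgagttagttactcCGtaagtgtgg
Nr0b1 upstream window, chrX:86191525-86191774, plus strand: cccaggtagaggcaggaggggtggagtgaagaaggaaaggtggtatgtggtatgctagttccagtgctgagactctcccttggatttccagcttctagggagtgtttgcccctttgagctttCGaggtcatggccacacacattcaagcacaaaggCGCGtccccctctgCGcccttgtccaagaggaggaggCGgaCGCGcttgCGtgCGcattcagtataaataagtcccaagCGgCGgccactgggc
Klf2 upstream window, chr8:72318812-72319061, plus strand: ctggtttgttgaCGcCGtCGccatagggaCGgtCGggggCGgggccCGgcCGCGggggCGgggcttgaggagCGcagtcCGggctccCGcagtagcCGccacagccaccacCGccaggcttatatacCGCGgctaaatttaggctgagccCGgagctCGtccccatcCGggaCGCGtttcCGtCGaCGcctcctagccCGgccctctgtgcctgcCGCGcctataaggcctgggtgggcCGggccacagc
The window of *Klf2* held 29 CpGs, that of *Nr0b1* 11 and that of *Zfp42* 9, against a median of 6 (quartiles 2 and 16) over all 32851 windows of the table. Of the 10 members 7 had a window, 9 windows in all. *Klf4* had 32 CpGs, *Tfcp2l1* 16, and the alternative starts of *Esrrb* had 6 and 3 and those of *Nr5a2* 6 and 2. Windows of *Klf5*, *Tbx3* and *Prdm14* were not used here. The windows were also searched on both strands for 5 motifs, none of which overlapped another in these windows. The octamer ATGCAAAT, which Oct factors bind, occurred in 1.6% of all windows and in that of *Zfp42* (as ATTTGCAT, its first base 186 before the start). GGGTGTGG, bound by Klf factors, occurred in 3.2% of all windows and likewise in that of *Zfp42* (as CCACACCC, at 75 before the start). TTCNNNGAA, the Stat motif, occurred in 7.02% of all windows and in 1 of *Esrrb* (TTCGTGGAA, at 178 before the start). TATAAA occurred in 12.4% of all windows and in those of *Nr0b1* (32 before the start), *Tfcp2l1* (28 before the start) and *Nr5a2* (181 before the start, on the other strand). CAAGGTCA, the site of Esrrb and Nr5a2, occurred in 1.33% of all windows and in none of the 9 windows of the members. A match is a description of the letters alone.

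**Figure D1:**
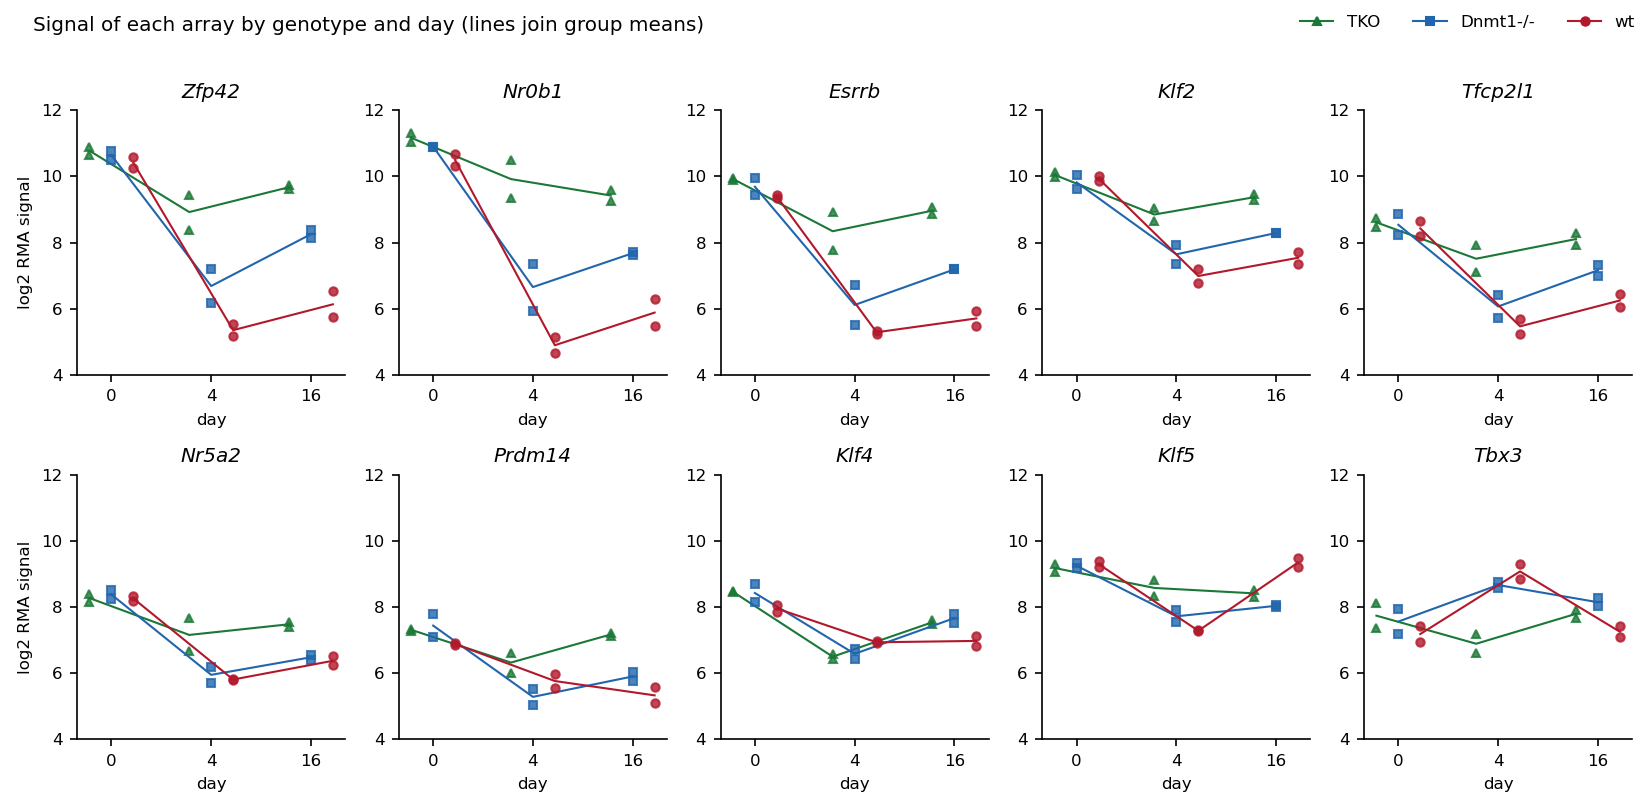
Log2 signals of the 10 naive factors (vertical axes) on the 18 arrays at day 0, 4 and 16 (horizontal axes, days evenly spaced and not to scale); each point is 1 array and lines join group means, with TKO, Dnmt1-/- and wt drawn as green triangles, blue squares and red circles. The lines start close together at day 0 for every gene, and at day 16 the TKO arrays of Zfp42 (9.62 and 9.73) lie far above those of wt (6.53 and 5.73).

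In undifferentiated ESCs, no naive factor passed the test between genotypes. A factor was called where its log2 fold change was at least 1 in either direction and its limma p, adjusted with Benjamini-Hochberg over all 35512 probe sets of the comparison, was below 0.05. Between TKO and wt ESCs 0 of 10 were called and 1 had an unadjusted p below 0.05 (*Klf4*), in a comparison that called 0.304% of all probe sets. Between *Dnmt1*-/- and wt ESCs 0 of 10 were called and 1 had an unadjusted p below 0.05 (again *Klf4*), with 0.355% of all probe sets called. Between TKO and *Dnmt1*-/- ESCs 0 of 10 were called and 0 had an unadjusted p below 0.05, with 0.00563% of all probe sets called. Here and below, the shares of all probe sets are of calls. The share at an unadjusted p below 0.05 is not given, so that counts at that line have no background beside them. The 10 log2 fold changes of TKO over wt ESCs ran from -0.12 to 0.67, and 9 of them were positive. Those of *Dnmt1*-/- over wt ESCs ran from -0.12 to 0.56, with 8 positive. All of these lay below the 2-fold line. A log2 fold change on these arrays had a median SE of 0.203 over all probe sets. Among the members the SE ran from 0.19 for *Klf5* to 0.44 for *Nr0b1*, so that most were measured less precisely than that median.

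*Zfp42* (Rex1), a zinc finger protein in wide use as a reporter of the naive state, was among the members with the largest differences between genotypes in EBs. At day 0 its log2 signal was 10.90 and 10.65 in TKO, 10.78 and 10.50 in *Dnmt1*-/- and 10.25 and 10.58 in wt ESCs. At day 4 it was 8.39 and 9.45 in TKO, 7.21 and 6.16 in *Dnmt1*-/- and 5.53 and 5.16 in wt EBs. At day 16 it was 9.62 and 9.73 in TKO, 8.37 and 8.14 in *Dnmt1*-/- and 6.53 and 5.73 in wt EBs. TKO arrays were highest and wt arrays lowest at both EB stages, with no overlap between the 3 genotypes. TKO EBs exceeded wt EBs by 3.57 ± 0.38 (log2, SE, adjusted p = 0.000137) at day 4 and by 3.54 ± 0.38 (adjusted p = 5.3e-05) at day 16. *Dnmt1*-/- EBs exceeded wt EBs by 1.34 ± 0.38 at day 4, which did not pass (adjusted p = 0.27), and by 2.12 ± 0.38 at day 16 (adjusted p = 0.0053), a call lost without wt day 16 replicate 2 or *Dnmt1*-/- day 16 replicate 1. In bulk RNA, a lower signal from fewer cells that express a gene cannot be told apart from less RNA per cell.

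*Nr0b1* (Dax1), an X-linked orphan nuclear receptor that binds other nuclear receptors and Oct4, spanned the widest range among the members, 6.28 log2 units between its highest and lowest group mean. At day 0 it read 11.30 and 11.03 in TKO, 10.90 on both *Dnmt1*-/- arrays and 10.32 and 10.68 in wt ESCs. At day 4 the signal was 9.33 and 10.50 in TKO, 7.36 and 5.94 in *Dnmt1*-/- and 4.66 and 5.13 in wt EBs. Day 16 EBs had 9.25 and 9.60 in TKO, 7.72 and 7.63 in *Dnmt1*-/- and 6.29 and 5.47 in wt. Groups kept the same order, TKO above *Dnmt1*-/- above wt, on all days and did not overlap within a day. At day 4 the log2 fold change of TKO EBs was 5.03 ± 0.44 over wt EBs (SE, adjusted p = 2.6e-05) and 3.27 ± 0.44 over *Dnmt1*-/- EBs (adjusted p = 0.0064). The wt signals of *Nr0b1*, *Zfp42*, *Esrrb* and *Tfcp2l1* at day 4 lay below the medians of all arrays, and no background level was used here, so that these signals may be at background and a fold change against them may be a lower bound. At day 16, wt replicate 2 of *Nr0b1*, *Zfp42* and *Esrrb* lay below these medians too. Without TKO day 4 replicate 2 the call of *Nr0b1* in TKO over *Dnmt1*-/- EBs was lost. At day 16 TKO EBs exceeded wt EBs by 3.54 ± 0.44 (adjusted p = 0.00018). *Dnmt1*-/- EBs exceeded wt EBs by 1.80 ± 0.44 at day 16 (adjusted p = 0.034), a call lost without wt day 16 replicate 2 or either *Dnmt1*-/- array of that day.

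*Esrrb*, an orphan nuclear receptor of the Wnt branch, had the same order of genotypes in EBs as *Zfp42*. At day 0 its signal was 9.88 and 9.97 in TKO, 9.94 and 9.44 in *Dnmt1*-/- and 9.44 and 9.34 in wt ESCs. Day 4 EBs had 7.76 and 8.92 in TKO, 6.71 and 5.52 in *Dnmt1*-/- and 5.23 and 5.34 in wt. Day 16 EBs had 9.08 and 8.85 in TKO, 7.19 on both *Dnmt1*-/- arrays and 5.94 and 5.47 in wt. Genotypes did not overlap at either EB stage. TKO over wt EBs gave log2 fold changes of 3.06 ± 0.38 at day 4 (adjusted p = 0.00045) and 3.26 ± 0.38 at day 16 (adjusted p = 0.0001). *Dnmt1*-/- over wt EBs gave 0.83 ± 0.38 at day 4 (adjusted p = 0.86) and 1.48 ± 0.38 at day 16 (adjusted p = 0.04), and this call was lost without any 1 of the 4 arrays compared.

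*Nr5a2* (Lrh1), a nuclear receptor that recognizes the same DNA site as Esrrb, had smaller log2 fold changes between genotypes. Its ESC signal was 8.40 and 8.14 in TKO, 8.51 and 8.24 in *Dnmt1*-/- and 8.34 and 8.17 in wt. Among day 4 EBs it read 6.65 and 7.65 in TKO, 6.19 and 5.70 in *Dnmt1*-/- and 5.81 and 5.79 in wt EBs. Among day 16 EBs it read 7.55 and 7.40 in TKO, 6.55 and 6.40 in *Dnmt1*-/- and 6.50 and 6.23 in wt EBs. TKO arrays stood above the others at both EB stages, whereas *Dnmt1*-/- and wt arrays overlapped. TKO exceeded wt EBs by 1.35 ± 0.27 at day 4 (adjusted p = 0.0099) and by 1.10 ± 0.27 at day 16 (adjusted p = 0.015). Those calls were lost at day 4 without TKO replicate 2 or either wt array, and at day 16 without wt replicate 2 or either TKO array. *Dnmt1*-/- EBs differed from wt EBs by 0.14 ± 0.27 at day 4 and by 0.11 ± 0.27 at day 16, with adjusted p of 0.9999 and 0.93.

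*Tfcp2l1*, a grainyhead family factor and Stat3 target, and *Klf2*, the Krüppel-like factor sustained when ERK signalling is low, showed the same order of genotypes in EBs. *Tfcp2l1* read 8.76 and 8.46 in TKO, 8.85 and 8.22 in *Dnmt1*-/- and 8.66 and 8.19 in wt ESCs. Day 4 EBs had 7.10 and 7.92 in TKO, 6.40 and 5.73 in *Dnmt1*-/- and 5.68 and 5.25 in wt, and day 16 EBs had 8.28 and 7.93 in TKO, 7.32 and 7.00 in *Dnmt1*-/- and 6.44 and 6.05 in wt. The genotypes did not overlap at day 4 or day 16. TKO over wt EBs was 2.05 ± 0.33 at day 4 (adjusted p = 0.0026) and 1.86 ± 0.33 at day 16 (adjusted p = 0.0022), and *Dnmt1*-/- over wt EBs was 0.60 ± 0.33 and 0.92 ± 0.33 at these days, with adjusted p of 0.98 and 0.16.

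*Klf2* read 9.97 and 10.13 in TKO, 10.03 and 9.61 in *Dnmt1*-/- and 9.85 and 10.02 in wt ESCs, with all 3 groups overlapping. At day 4 its signal was 8.64 and 9.05 in TKO, 7.93 and 7.36 in *Dnmt1*-/- and 7.20 and 6.77 in wt EBs. At day 16 it was 9.28 and 9.46 in TKO, 8.28 and 8.30 in *Dnmt1*-/- and 7.72 and 7.36 in wt EBs. At both EB stages the genotypes stood apart in the order TKO, *Dnmt1*-/- and wt. TKO exceeded wt EBs by 1.86 ± 0.23 at day 4 (adjusted p = 0.00045) and by 1.83 ± 0.23 at day 16 (adjusted p = 0.00019). The values of *Dnmt1*-/- over wt EBs, 0.66 ± 0.23 and 0.75 ± 0.23, did not pass (adjusted p = 0.54 at day 4 and 0.091 at day 16).

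*Prdm14*, a PR domain protein that represses FGF signalling genes and *Dnmt3b* in ESCs and is needed for primordial germ cells, was called between TKO and wt EBs at day 16 and not at day 4. Its day 0 signal was 7.33 and 7.28 in TKO, 7.78 and 7.09 in *Dnmt1*-/- and 6.85 and 6.90 in wt ESCs. At day 4 it was 6.01 and 6.62 in TKO, 5.52 and 5.03 in *Dnmt1*-/- and 5.96 and 5.55 in wt EBs, and at day 16 it was 7.12 and 7.21 in TKO, 5.76 and 6.03 in *Dnmt1*-/- and 5.08 and 5.56 in wt EBs. By day 16 the TKO arrays were back in the range of the day 0 arrays of all 3 genotypes (6.85 to 7.78). They stayed below both TKO arrays of day 0. At day 16 the 3 genotypes did not overlap. TKO over wt EBs was 1.84 ± 0.27 at day 16 (adjusted p = 0.0006) and 0.56 ± 0.27 at day 4, where it did not pass (adjusted p = 0.36). The wt signals of day 16 and the *Dnmt1*-/- signals of day 4 lay below the medians of all arrays and may be at background. *Dnmt1*-/- over wt EBs was -0.48 ± 0.27 at day 4 (adjusted p = 0.9999) and 0.57 ± 0.27 at day 16 (adjusted p = 0.32).

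*Klf4*, a target of LIF and Stat3, was not called between TKO and wt EBs at either stage. It read 8.47 and 8.44 in TKO, 8.68 and 8.16 in *Dnmt1*-/- and 8.06 and 7.84 in wt ESCs. At day 4 it read 6.42 and 6.56 in TKO, 6.43 and 6.73 in *Dnmt1*-/- and 6.97 and 6.89 in wt EBs, and at day 16 it read 7.59 and 7.48 in TKO, 7.80 and 7.52 in *Dnmt1*-/- and 7.12 and 6.82 in wt EBs. Mutant arrays lay below the wt arrays at day 4 and above them at day 0 and day 16. The log2 fold changes of TKO over wt were -0.44 ± 0.19 at day 4 (adjusted p = 0.28) and 0.57 ± 0.19 at day 16 (adjusted p = 0.07). Those of *Dnmt1*-/- over wt were -0.35 ± 0.19 (adjusted p = 0.98) and 0.69 ± 0.19 (adjusted p = 0.054).

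*Klf5*, a Krüppel-like factor that is active in ESCs and also in many epithelia, changed its order between the EB stages. In ESCs it read 9.06 and 9.29 in TKO, 9.31 and 9.17 in *Dnmt1*-/- and 9.39 and 9.21 in wt. At day 4 it read 8.32 and 8.82 in TKO, 7.90 and 7.53 in *Dnmt1*-/- and 7.26 and 7.29 in wt EBs. At day 16 it read 8.30 and 8.52 in TKO, 7.99 and 8.07 in *Dnmt1*-/- and 9.22 and 9.46 in wt EBs. TKO arrays were thus highest at day 4 and wt arrays highest at day 16. TKO exceeded wt EBs by 1.30 ± 0.19 at day 4 (adjusted p = 0.0012), and at day 16 *Dnmt1*-/- EBs fell below wt EBs by 1.31 ± 0.19 (log2 fold change -1.31, adjusted p = 0.00097). The value of TKO over wt at day 16, -0.93 ± 0.19 (adjusted p = 0.0048), was short of the 2-fold line. Endoderm markers averaged 8.15 and 8.72 in TKO, 9.96 and 10.32 in *Dnmt1*-/- and 9.46 and 9.95 in wt EBs at day 16, and their part in the signal of *Klf5* was not tested.

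*Tbx3*, a T-box factor of the naive network that is also expressed in extraembryonic and mesodermal cells, ran against the others. In ESCs it read 8.11 and 7.36 in TKO, 7.93 and 7.18 in *Dnmt1*-/- and 7.43 and 6.92 in wt. At day 4 it read 6.60 and 7.17 in TKO, 8.57 and 8.75 in *Dnmt1*-/- and 8.84 and 9.31 in wt EBs. At day 16 it read 7.92 and 7.66 in TKO, 8.25 and 8.03 in *Dnmt1*-/- and 7.42 and 7.08 in wt EBs. At day 4 the TKO arrays lay below all other arrays of the day, while at day 16 the wt arrays were lowest. TKO over wt EBs was -2.19 ± 0.32 at day 4 (adjusted p = 0.0013), a 4.56-fold lower signal, and TKO over *Dnmt1*-/- EBs was -1.78 ± 0.32 (adjusted p = 0.018). The second of these did not pass without TKO day 4 replicate 1 or 2 or *Dnmt1*-/- day 4 replicate 2. At day 16 TKO over wt was 0.54 ± 0.32 (adjusted p = 0.35). Of 7 trophoblast markers measured, *Hand1* and *Cdx2*, which are also made in early mesoderm, were called lower in TKO than in wt EBs at day 4 (-3.16 ± 0.26 and -2.25 ± 0.24, adjusted p = 2e-05 and 0.00012). The median log2 fold change of the 7 was 0.003, with 0 called higher and only these 2 at an unadjusted p below 0.05. Of all probe sets, 2.92% were called there. What part cells with these markers had in the signal of *Tbx3* was not tested.

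**Figure D2:**
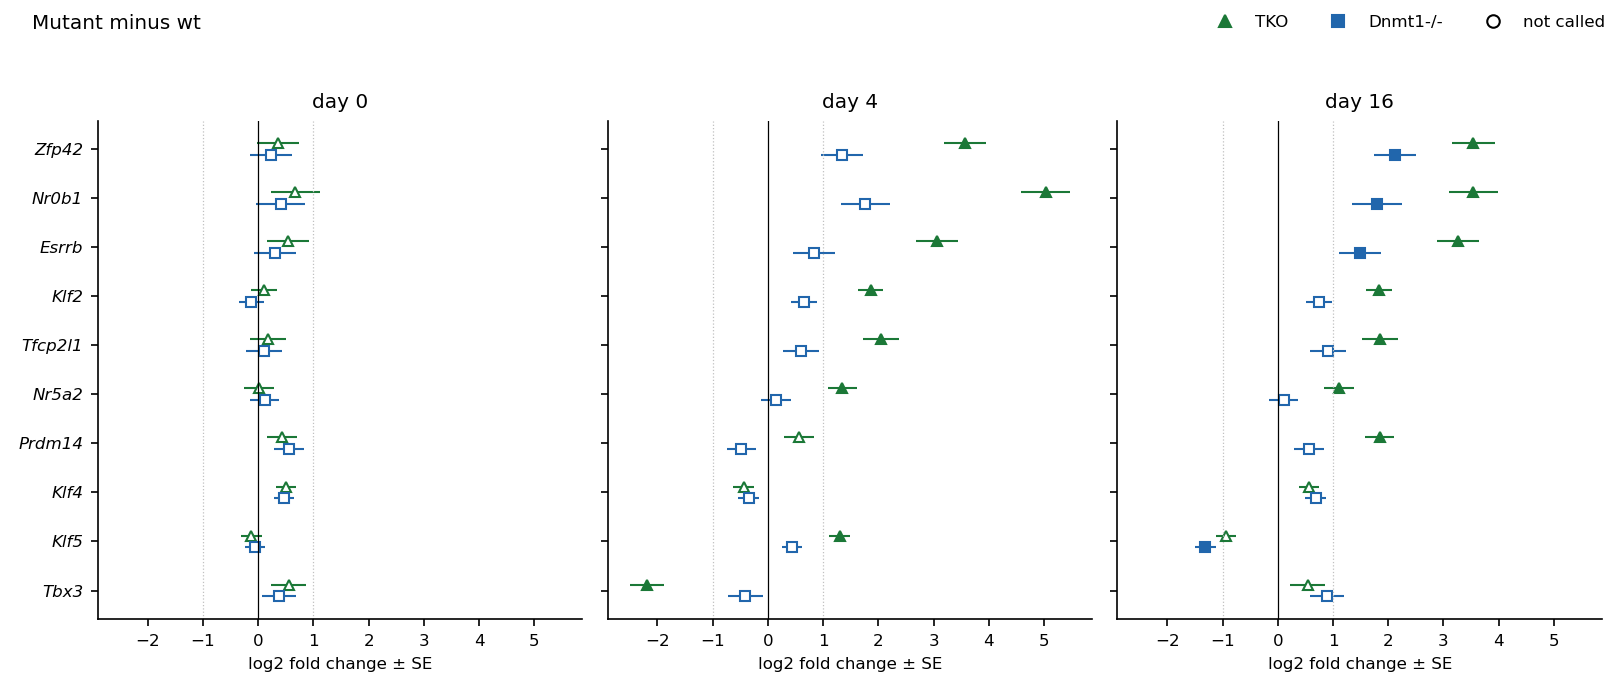
Log2 fold change ± SE (horizontal axes) of each naive factor (rows) in TKO over wt (green triangles) and Dnmt1-/- over wt (blue squares) at day 0, 4 and 16; filled symbols are called, open symbols are not, and dotted lines mark a 2-fold difference. No symbol is filled at day 0, 8 of TKO and 0 of Dnmt1-/- are filled at day 4, and 7 of TKO and 4 of Dnmt1-/- are filled at day 16.

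By comparison, 8 of 10 naive factors were called between TKO and wt EBs at day 4, 7 higher in TKO (*Nr0b1*, *Zfp42*, *Esrrb*, *Tfcp2l1*, *Klf2*, *Nr5a2*, *Klf5*) and *Tbx3* lower, where 2.92% of all probe sets were called. Their median log2 fold change was 1.60, against -0.05 over all probe sets. At day 16 7 of 10 were called, all higher in TKO (*Zfp42*, *Nr0b1*, *Esrrb*, *Tfcp2l1*, *Prdm14*, *Klf2*, *Nr5a2*), with 5.83% of all probe sets called and medians of 1.84 for the members and 0.05 for all. Between *Dnmt1*-/- and wt EBs 0 of 10 were called by limma at day 4, with 5 at an unadjusted p below 0.05 and 0.738% of all probe sets called. At day 16 *Zfp42*, *Nr0b1* and *Esrrb* were called higher and *Klf5* lower in *Dnmt1*-/- EBs, 4 of 10 where 2.89% of all probe sets were called. Both mutants were compared with the same wt arrays, so these counts are not independent of each other.

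Between the mutants, 6 of 10 were called at day 4, with *Nr0b1*, *Zfp42*, *Esrrb*, *Nr5a2* and *Klf2* higher and *Tbx3* lower in TKO than in *Dnmt1*-/- EBs, where 0.848% of all probe sets were called. All 6 depended on single arrays, since each was lost without TKO day 4 replicate 2 and 5 of them (all but *Nr0b1*) without *Dnmt1*-/- day 4 replicate 2. *Klf2* and *Tbx3* were lost without TKO day 4 replicate 1 too. At day 16 3 of 10 were called, all higher in TKO, with 1.07% of all probe sets called. They were *Esrrb* (1.78 ± 0.38, adjusted p = 0.036), *Prdm14* (1.27 ± 0.27, adjusted p = 0.036) and *Klf2* (1.08 ± 0.23, adjusted p = 0.036), and each was lost without any 1 of the 4 arrays compared. *Nr0b1* and *Zfp42*, at 1.75 ± 0.44 and 1.42 ± 0.38, did not pass (adjusted p = 0.074 and 0.088).

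Over time, 9 of 10 members were called lower at day 4 of EB culture in wt cells and in *Dnmt1*-/- cells, and 5 of 10 in TKO cells, where all 10 were lower at an unadjusted p below 0.05. In wt, all 10 were called between day 4 EBs and ESCs, 9 lower and *Tbx3* higher, with 4.51% of all probe sets called and a median member change of -2.70. *Nr0b1* (-5.60 ± 0.44, adjusted p = 1.7e-05) and *Zfp42* (-5.06 ± 0.38, adjusted p = 1.1e-05) fell to the low day 4 signals given above. *Klf4* (-1.02 ± 0.19, adjusted p = 0.0043) and *Prdm14* (-1.12 ± 0.27, adjusted p = 0.02) were just past the 2-fold line. The call of *Klf4* was lost without wt day 0 replicate 1 or wt day 4 replicate 2, and that of *Prdm14* without either wt day 0 array or wt day 4 replicate 2. *Tbx3* rose by 1.89 ± 0.32 (adjusted p = 0.0023).

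In *Dnmt1*-/- cells the same comparison also called all 10, 9 lower and *Tbx3* higher, with 4.61% of all probe sets called and a median of -2.30. *Nr0b1* fell by 4.25 ± 0.44 and *Zfp42* fell by 3.96 ± 0.38 (adjusted p = 0.00013 and 9.3e-05), while *Prdm14* fell by 2.16 ± 0.27 (adjusted p = 0.00041). The rise of *Tbx3*, 1.11 ± 0.32 (adjusted p = 0.045), was lost without *Dnmt1*-/- day 0 replicate 2 or either *Dnmt1*-/- day 4 array, and also when each array was centred on its median. In TKO cells 5 of 10 were called, all lower (*Klf4*, *Zfp42*, *Esrrb*, *Klf2*, *Nr5a2*), with 3.17% of all probe sets called. All 10 changes were negative there, from -1.96 to -0.60, with a median of -1.16. *Klf4* fell by 1.96 ± 0.19 (adjusted p = 0.0003), and *Nr0b1* changed by -1.25 ± 0.44 without passing (adjusted p = 0.14). The 4 TKO calls other than *Klf4* were lost without TKO day 4 replicate 1, the lower array of that group, and without TKO day 0 replicate 2, and those of *Zfp42*, *Esrrb* and *Nr5a2* without TKO day 0 replicate 1 too.

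From day 4 to day 16 few members were called, although most values were positive. In TKO 8 of 10 were positive and 4 had an unadjusted p below 0.05, in *Dnmt1*-/- 9 and 7, and in wt 8 and 5. The shares of all probe sets that were positive or at that p are not given here. The median of the members was 0.609 in TKO, 0.835 in *Dnmt1*-/- and 0.559 in wt EBs. Over all probe sets these medians were 0.011, -0.073 and -0.08. In wt EBs *Klf5* rose by 2.07 ± 0.19 (adjusted p = 1.5e-05) and *Tbx3* fell by 1.82 ± 0.32 (adjusted p = 0.0019), 2 of 10 where 5.87% of all probe sets were called. In *Dnmt1*-/- EBs *Zfp42* rose by 1.57 ± 0.38 (adjusted p = 0.033) and *Klf4* by 1.08 ± 0.19 (adjusted p = 0.005), 2 of 10 with 2.7% of all probe sets called. The call of *Zfp42* was lost without *Dnmt1*-/- day 4 replicate 2 or either day 16 array, and that of *Klf4* without replicate 1 of day 4 or of day 16. In TKO EBs *Klf4* alone was called, rising by 1.04 ± 0.19 (adjusted p = 0.014), 1 of 10 with 1.41% of all probe sets called, and this was lost without any 1 of the 4 arrays.

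Day 16 EBs were also set against ESCs directly. In wt 7 of 10 were called, all lower (*Nr0b1*, *Zfp42*, *Esrrb*, *Klf2*, *Tfcp2l1*, *Nr5a2*, *Prdm14*), from -4.62 ± 0.44 for *Nr0b1* to -1.55 ± 0.27 for *Prdm14*, with 10.8% of all probe sets called. *Klf5* (0.05 ± 0.19) and *Tbx3* (0.07 ± 0.32) were close to their ESC signal, and *Klf4*, at -0.98 ± 0.19 (adjusted p = 0.002), was short of the 2-fold line. In *Dnmt1*-/- cells 8 of 10 were called, all lower, with 6.9% of all probe sets called, these 7 and *Klf5* (-1.21 ± 0.19, adjusted p = 0.00079). The call of *Tfcp2l1* there was lost without *Dnmt1*-/- day 0 replicate 1 or day 16 replicate 2. In TKO cells only *Nr0b1* was called, at -1.75 ± 0.44 (adjusted p = 0.041), 1 of 10 with 2.5% of all probe sets called, and it was lost without any 1 of the 4 arrays. *Zfp42*, at -1.10 ± 0.38, and *Esrrb*, at -0.96 ± 0.38, did not pass (adjusted p = 0.13 and 0.2).

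The change in a mutant can be read as a share of the wt change. Over the 7 members called lower in wt at both EB stages, a subset taken from these values and given with no test, TKO cells went through 22.3% to 88.5% of the wt fall by day 4 (median 38.5%) and 9.1% to 42% by day 16 (median 26%). *Dnmt1*-/- cells went through 73.7% to 193% by day 4 (median 83.4%) and 55.8% to 101% by day 16 (median 67.8%). *Prdm14* gave the highest share at day 4 in both mutants and the lowest at day 16 in TKO cells. The wt signals of *Nr0b1*, *Zfp42*, *Esrrb* and *Tfcp2l1* at day 4 and of *Prdm14* at day 16 (5.08 and 5.56) lay below the array medians. So did 1 of the 2 wt arrays of day 16 for *Nr0b1* (5.47), *Esrrb* (5.47) and *Zfp42* (5.73), and both *Dnmt1*-/- arrays of day 4 for *Prdm14* (5.52 and 5.03). The wt signals of *Nr5a2* at day 4 (5.79 and 5.81) lay within the range of the array medians. These signals may be at background, where a fall would be understated and a share of the wt fall would not be exact.

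**Figure D3:**
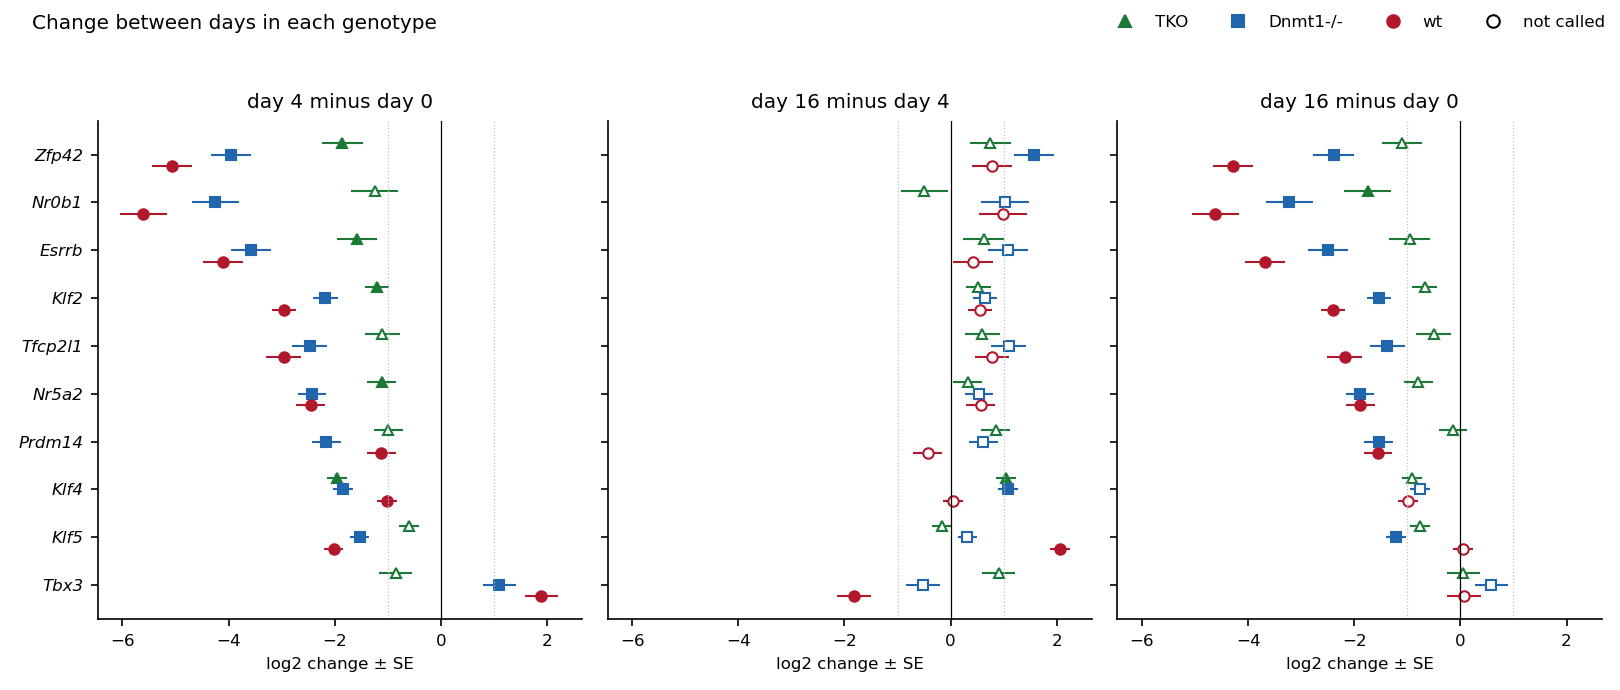
Log2 change ± SE (horizontal axes) of each naive factor (rows) over 3 intervals of EB culture, with TKO (green), Dnmt1-/- (blue) and wt (red) symbols under each other; filled symbols are called. From day 0 to day 4 all 10 wt and Dnmt1-/- symbols are filled, against 5 TKO symbols, and Nr0b1 reaches -5.60 in wt.

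Whether the changes themselves differed between genotypes was tested as a difference of changes, with a median SE of 0.287 over all probe sets. For day 4 minus day 0, 6 of 10 members differed between TKO and wt, with 1.38% of all probe sets called. *Nr0b1* (4.36 ± 0.63, adjusted p = 0.0075), *Zfp42* (3.21 ± 0.54, adjusted p = 0.014), *Esrrb* (2.52 ± 0.54, adjusted p = 0.038), *Klf2* (1.75 ± 0.33, adjusted p = 0.023) and *Klf5* (1.42 ± 0.26, adjusted p = 0.023) had the less negative change in TKO. *Tbx3* differed in the other direction (-2.74 ± 0.45, adjusted p = 0.012). The value of *Nr0b1* passed with any 1 of the 8 arrays left out. The calls of *Zfp42*, *Esrrb*, *Klf2* and *Klf5* were lost without TKO day 4 replicate 2 and without TKO day 0 replicate 2, those of *Esrrb*, *Klf2*, *Klf5* and *Tbx3* without TKO day 0 replicate 1, and that of *Tbx3* without TKO day 4 replicate 1. Of the wt arrays, leaving out day 0 replicate 1 or day 4 replicate 2 ended the calls of *Esrrb*, *Klf2* and *Klf5*, day 0 replicate 2 those of *Esrrb* and *Klf2*, and day 4 replicate 1 those of *Esrrb* and *Klf5*.

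For day 16 minus day 0, 4 of 10 differed between TKO and wt, all with a smaller fall in TKO, with 3.91% of all probe sets called: *Zfp42* (3.18 ± 0.54, adjusted p = 0.0045), *Nr0b1* (2.87 ± 0.63, adjusted p = 0.02), *Esrrb* (2.73 ± 0.54, adjusted p = 0.011) and *Klf2* (1.73 ± 0.33, adjusted p = 0.0092). *Nr0b1* was lost without wt day 0 replicate 2, wt day 16 replicate 2, TKO day 16 replicate 2 or either TKO day 0 array, and the other 3 were kept without any 1 array. *Prdm14* (1.41 ± 0.38) and *Tfcp2l1* (1.68 ± 0.46) did not pass (adjusted p = 0.055 and 0.06). Both passed with a further quantile normalization (adjusted p = 0.0367 and 0.0352), without the dimmest 30% of probe sets (0.0416 and 0.0461) and with the replicate number as a block (0.0466 and 0.023). For day 16 minus day 4, *Tbx3* (2.73 ± 0.45, adjusted p = 0.0048) and *Klf5* (-2.23 ± 0.26, adjusted p = 0.00046) differed between TKO and wt, 2 of 10 with 2.89% of all probe sets called.

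Between *Dnmt1*-/- and wt only *Klf5* differed in its change, by -1.75 ± 0.26 for day 16 minus day 4 (adjusted p = 0.0075), 1 of 10 with 0.884% of all probe sets called, and by -1.26 ± 0.26 for day 16 minus day 0 (adjusted p = 0.034), 1 of 10 with 1.37% called. The second value was lost without any 1 of the arrays compared other than wt day 16 replicate 1. For day 4 minus day 0 limma called 0 of 10 and 0% of all probe sets, with 3 members at an unadjusted p below 0.05 (*Klf4*, *Prdm14* and *Klf2*). Between TKO and *Dnmt1*-/- limma called 0 of 10 for day 4 minus day 0, with 9 at an unadjusted p below 0.05 and 0.031% of all probe sets called. It called 0 of 10 for day 16 minus day 4 (2 at an unadjusted p below 0.05, 0.163% of all probe sets called) and 0 of 10 for day 16 minus day 0 (6 at an unadjusted p below 0.05, 0.152% called). The shares are of calls and cannot be set against the counts at an unadjusted p below 0.05. These differences of changes share the arrays of the comparisons above.

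The arrays of a group did not always match in the naive factors. In TKO EBs of day 4, replicate 2 was higher than replicate 1 in 10 of 10 members, by 0.14 to 1.17 with a median of 0.71, where 46.3% of all probe sets were higher in replicate 2. *Pou5f1* (Oct4) and *Nanog*, the core pluripotency genes, differed there by -0.11 and -0.11. In *Dnmt1*-/- EBs of day 4, replicate 1 was higher in 8 of 10 members, by up to 1.42 for *Nr0b1*, and *Pou5f1* and *Nanog* were higher in replicate 1 by 1.69 and 1.97. Of all probe sets, 47.9% were higher in replicate 2 there. In *Dnmt1*-/- ESCs replicate 1 was higher in 10 of 10 members, where 51.5% of all probe sets were higher in replicate 2. The lower array of day 4 TKO EBs was still above both wt arrays in *Zfp42* (8.39, against 5.53 and 5.16), *Nr0b1* (9.33, against 4.66 and 5.13) and *Esrrb* (7.76, against 5.23 and 5.34).

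**Figure D4:**
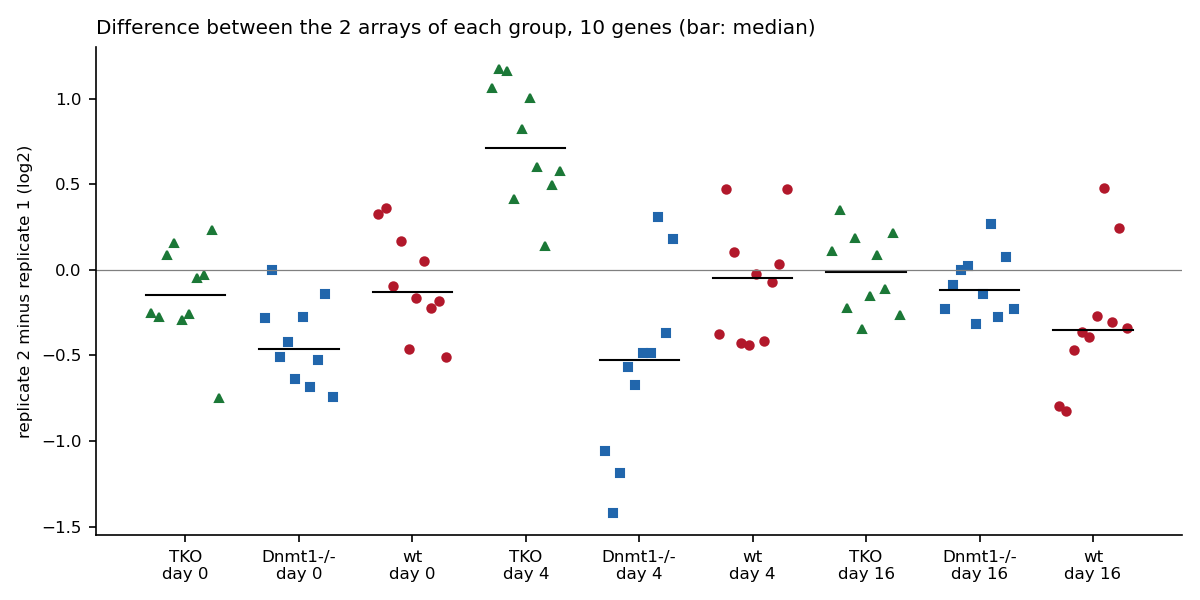
Log2 signal of replicate 2 minus replicate 1 (vertical axis) in the 9 groups; each point is 1 of the 10 naive factors and the bar is their median. All 10 lie above 0 in TKO day 4 EBs, with a median of 0.71.

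Across the 9 group means, which share arrays with every comparison above, most members followed one profile. The correlation of a member with the mean of the other 9 was 0.994 for *Klf2*, 0.992 for *Esrrb*, 0.989 for *Zfp42* and *Tfcp2l1*, 0.976 for *Nr5a2*, 0.961 for *Nr0b1* and 0.93 for *Prdm14*. It was 0.777 for *Klf4*, 0.63 for *Klf5* and -0.60 for *Tbx3*. The genes outside the list with the most similar profile (Pearson r with the mean profile of the members, over 9 group means) were *Fgf4* (0.994), the ligand through which ESCs signal to themselves, *Jam2*, *Apobec3* and *Hsd17b14* (each 0.990) and *Gtsf1l* (0.989). *Fgf4* averaged 7.55 ± 0.61 in TKO, 6.46 ± 0.14 in *Dnmt1*-/- and 6.28 ± 0.21 in wt EBs of day 4, and at day 16 it averaged 8.20 ± 0.28 in TKO, 7.17 ± 0.19 in *Dnmt1*-/- and 6.30 ± 0.23 in wt EBs (log2, SD, n = 2 each).

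The rest of the network was followed in lists of genes that act with the members. Of 15 measured genes of the wider ESC network, 14 were called lower in wt and 14 in *Dnmt1*-/- EBs of day 4 against ESCs, and 5 in TKO EBs. Of all probe sets, 4.51%, 4.61% and 3.17% were called in these comparisons, in either direction. Between TKO and wt EBs 8 were called higher at day 4 and 12 at day 16, and 0 lower, led at day 16 by *Utf1* (3.75 ± 0.31), *Pou5f1* (3.39 ± 0.41), *Fbxo15* (3.32 ± 0.52) and *Nanog* (2.92 ± 0.47), with adjusted p of 5.2e-06, 0.00014, 0.00094 and 0.0011. Between *Dnmt1*-/- and wt EBs 0 were called at day 4 (limma, 6 at an unadjusted p below 0.05) and 6 higher at day 16. Of all probe sets, 2.92% were called between TKO and wt EBs at day 4 and 5.83% at day 16. Between *Dnmt1*-/- and wt EBs these shares were 0.738% and 2.89%. The median of the list for TKO over wt at day 16 was 2.02, against 0.03 over all probe sets with 1 symbol.

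Genes of the input pathways were counted in the same comparisons, in which 2.92% of all probe sets were called between TKO and wt EBs at day 4 and 5.83% at day 16. Of 11 genes of LIF and Stat3 signalling, 1 was called between TKO and wt EBs at day 4 (*Pim1*, a Stat3 target kinase, 1.25 ± 0.18, adjusted p = 0.0013, with 5 at an unadjusted p below 0.05) and 0 at day 16 (limma, 4 at an unadjusted p below 0.05), whereas in wt EBs of day 4 *Pim1* (-2.11 ± 0.18) and *Socs3* (-1.51 ± 0.22), the feedback inhibitor of this pathway, fell against ESCs and *Jak2* (1.43 ± 0.34) rose, with adjusted p of 2.6e-05, 0.00085 and 0.018. Of 7 genes of the Wnt input 0 were called between TKO and wt EBs at day 4 (2 at an unadjusted p below 0.05) or day 16 (3 at that line). Of 10 genes of FGF and ERK signalling, 5 were called higher in TKO than in wt EBs at day 4, among them *Etv5* (1.91 ± 0.33, adjusted p = 0.0039), *Dusp6* (1.87 ± 0.50, adjusted p = 0.048) and *Spry4* (1.35 ± 0.30, adjusted p = 0.018), which ERK signalling induces, and the receptor *Fgfr2* was called lower (-1.74 ± 0.41, adjusted p = 0.026). At day 16 2 were called higher and 1 lower. Of 12 factors that act in the exit from the naive state, *Etv5* and *Otx2* were called higher in TKO than in wt EBs at day 4 and day 16, with *Otx2*, a factor of the formative epiblast, at 1.87 ± 0.39 and 2.49 ± 0.39 (adjusted p = 0.012 and 0.00088). In *Dnmt1*-/- over wt EBs 0 factors of the exit were called at day 4 (limma, 0 at an unadjusted p below 0.05) and 3 at day 16, all higher. Of all probe sets, 0.738% and 2.89% were called there.

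At day 16 most markers of mesenchyme and cardiomyocytes were called lower in TKO than in wt EBs, and those of other cell types were called in smaller numbers or in the other direction. Of all probe sets, 5.83% were called between TKO and wt EBs and 2.89% between *Dnmt1*-/- and wt EBs, in either direction. Of 9 mesenchyme markers, 7 were called lower in TKO and 6 in *Dnmt1*-/- than in wt EBs, and their mean log2 signal was 6.64 and 6.09 in TKO, 8.97 and 8.46 in *Dnmt1*-/- and 10.17 and 10.30 in wt EBs. Of 9 cardiomyocyte markers, 7 were called lower in TKO than in wt EBs and 3 in *Dnmt1*-/- than in wt EBs, with mean signals of 6.19 and 6.68 in TKO, 7.66 and 8.08 in *Dnmt1*-/- and 8.55 and 8.52 in wt EBs. Of 11 endoderm markers, 3 were called lower in TKO than in wt EBs, while 2 were called higher and 1 lower in *Dnmt1*-/- than in wt EBs. Endothelial markers averaged 7.09 and 6.86 in TKO, 7.35 and 7.11 in *Dnmt1*-/- and 7.45 and 6.81 in wt EBs, with 1 of 10 called lower in TKO. Neural markers, 9 measured, gave 1 called higher in TKO, and trophoblast markers, 7 measured, gave 2 called higher in TKO. What part these cell types had in the signals of the naive factors was not tested. At day 4, 2 of 9 mesenchyme markers were called lower in TKO than in wt EBs, with 2.92% of all probe sets called. The mean signal of the 9 was then 5.92 and 5.89 in TKO, 6.18 and 6.50 in *Dnmt1*-/- and 6.53 and 6.54 in wt EBs.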

How the data were processed

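RNA of TKO, *Dnmt1*-/- and wt ESCs and EBs was hybridised to 18 Affymetrix arrays by the authors, who deposited log2 signals per probe set made with RMA, which corrects background, normalizes between arrays and summarizes the probes of a set. The sources used here do not give the RMA version, the annotation or a filter. The deposited log2 values were used as they are, and all 35512 probe sets were kept. Symbols came from the platform annotation, where 21789 probe sets had 1 symbol, 1621 several and 12102 none. No symbol with several genes was used, and each of the 10 members had 1 probe set.

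With limma 3.58.1 (R 4.3.3), the means of the 9 groups were fitted over the 18 arrays together (lmFit, contrasts.fit, eBayes; 9 residual and 3.32 prior degrees of freedom), as 27 contrasts. Every adjusted p and SE is of this fit, and SDs are over 2 arrays. A gene was called at a 2-fold difference or more in either direction (1 on the log2 scale) with a Benjamini-Hochberg adjusted p under 0.05 within its comparison, as in the methods of the study. The number of arrays limits the precision. The fit was tested on simulated data. Named genes were all members, up to 4 called genes of a list with the largest fold change or list members set side by side, the 5 genes of most similar profile (of 1514 with a range of at least 2 over the group means) and the *Dnmt* genes. The members, lists and alternatives were chosen with earlier results of these data known. Alternatives were median centring, a further quantile normalization, a fit restricted to the groups compared, leaving out the dimmest 30% of probe sets, trend and robust variance, the replicate number as a block, a false discovery rate over all comparisons, no line on the fold change, and each array left out.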

Additional observations from a re-analysis of the deposited data

Results flagged for a closer look

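The changes of 6 naive factors over EB culture differed between genotypes by a test of the difference itself (limma, contrast of contrasts), and each such value is given here as the mutant change minus the wt change on the log2 scale. From day 0 to day 4, TKO minus wt was 4.36 for *Nr0b1*, 3.21 for *Zfp42*, 2.52 for *Esrrb*, 1.75 for *Klf2*, 1.42 for *Klf5* and -2.74 for *Tbx3*. From day 0 to day 16 it was 3.18 for *Zfp42*, 2.87 for *Nr0b1*, 2.73 for *Esrrb* and 1.73 for *Klf2*. From day 4 to day 16 it was 2.73 for *Tbx3* and -2.23 for *Klf5*. *Dnmt1*-/- minus wt passed for *Klf5* alone, at -1.75 from day 4 to day 16 and -1.26 from day 0 to day 16. None of these 14 differences changed its sign with any 1 array left out, under median centring or under a further quantile normalization. A change of sign was hardly possible there, so that its absence says little. All 14 were at least 1.26 in size, and the arrays of a group differed by at most 1.42 in any member. The other settings tried cannot change the sign. Groups of 2 arrays were too small to look for single arrays that stand apart.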

How the results depend on the processing

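Of the 88 called values of naive factors, 0 changed sign under any alternative. Only median centring, the quantile normalization and leaving out an array could change a fold change, while the other alternatives left it as it was. Even these could hardly change a sign, since every called value was at least 1 in size. The replicate block, the quantile normalization, trend and robust variance and the omitted dim probe sets each kept all 88. Median centring kept 85 and a false discovery rate over all comparisons 87. The absent fold line can only add calls, so that its 88 kept calls were fixed in advance. A fit of only the arrays compared kept 63, with 2 residual degrees of freedom for 2 groups. Under it 2 members were called for *Dnmt1*-/- minus wt at day 16, 2 for TKO day 4 minus day 0, 3 for the TKO minus wt difference of changes from day 0 to 4, and 0 for *Dnmt1*-/- and TKO day 16 minus day 4, for TKO minus *Dnmt1*-/- at day 4 and day 16 and for the *Dnmt1*-/- minus wt differences of changes to day 16. A false discovery rate over all comparisons called 1 member for *Dnmt1*-/- minus wt at day 4, 2 for the *Dnmt1*-/- minus wt difference of changes from day 4 to 16 and 3 for TKO minus *Dnmt1*-/- from day 0 to 4. With no fold line 3 were called for TKO day 16 minus day 0. The shares of all probe sets called under these settings are not given here, so that the counts describe no shift particular to the members.

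With 1 array left out, the counts of members ranged, for TKO minus wt, over 0 to 0 at day 0, 7 to 8 at day 4 and 6 to 8 at day 16. For *Dnmt1*-/- minus wt they ranged over 0 to 0, 0 to 1 and 1 to 3, and for TKO minus *Dnmt1*-/- over 0 to 0, 0 to 8 and 0 to 0 at these days. Day 4 minus day 0 gave 1 to 7 in TKO, 9 to 10 in *Dnmt1*-/- and 8 to 10 in wt, day 16 minus day 4 gave 0 to 0, 0 to 2 and 2 to 2, and day 16 minus day 0 gave 0 to 0, 7 to 9 and 7 to 8. Differences of changes gave, for TKO minus wt, 2 to 6 (day 0 to 4), 2 to 2 (day 4 to 16) and 3 to 4 (day 0 to 16). *Dnmt1*-/- minus wt gave 0 to 0, 1 to 1 and 0 to 1, and TKO minus *Dnmt1*-/- 0 to 2, 0 to 0 and 0 to 0. The shares of all probe sets called with an array left out are not given here, so that these shifts cannot be set against them. The cause of these shifts was not tested, beyond the fewer arrays in the fit.

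Equal replicate numbers were checked across the 36 pairs of groups, where replicate differences correlated with r of 0.041 to 0.501 (median 0.273), over 0.1 in 32. The numbers were not taken to pair the arrays, as the labels do not say that a number marks a shared experiment. The study describes 2 independent experiments without tying the replicate numbers to them, and the correlation was positive in all 36. The replicate block lost 0 calls and added 7, of which 5 were of *Tfcp2l1*, 1 of *Klf4* and 1 of *Prdm14*. The quantile normalization also added 7 and the omission of dim probe sets 4. Each member had 1 probe set, so that no other probe set could be tried. Lists were counted again under median centring and without the dim probe sets only, and 619 of 702 counts were unchanged. The largest shift was 2 genes, among them exit factors called higher in TKO than in wt EBs at day 16, which were 4 under median centring and 2 otherwise.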

Other observations

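Relatives of the naive factors were compared across genotypes as well. Of 31 measured genes of the Klf, Prdm, Tbx, grainyhead and nuclear receptor families, 2 were called higher and 2 lower in TKO than in wt EBs at day 4, where 2.92% of all probe sets were called. *Grhl2*, an epithelial grainyhead factor (1.54 ± 0.26, adjusted p = 0.0039), and *Klf9* (1.06 ± 0.24, adjusted p = 0.022) were higher, while *Prdm6* (-3.26 ± 0.31, adjusted p = 5.3e-05) and *Tbx2*, the closest relative of *Tbx3* (-1.63 ± 0.16, adjusted p = 6.7e-05), were lower. In wt EBs of day 4 against ESCs, *Prdm6* (3.46 ± 0.31) and *Tbx2* (1.31 ± 0.16) rose and *Grhl2* (-1.46 ± 0.26) and *Klf9* (-1.86 ± 0.24) fell, with adjusted p of 3.3e-05, 0.00026, 0.0038 and 0.00042. At day 16 2 of 31 were called, a share near the 5.83% of all probe sets. Of 9 germ cell markers, 1 was called higher in TKO than in wt ESCs, 5 in TKO than in wt EBs at day 4 and 6 at day 16, where 0.304%, 2.92% and 5.83% of all probe sets were called. Those higher in *Dnmt1*-/- than in wt cells numbered 2 at day 0, 3 at day 4 and 6 at day 16, where 0.355%, 0.738% and 2.89% were called.

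The members that left the shared profile had other nearest genes over the 9 group means. *Tbx3* was nearest to *Cfc1* (r = 0.937) and to *Hand1* (r = 0.891), *Klf5* to *Apobec1* (r = 0.93) and *Klf4* to *Tex14* (r = 0.943), against r = 0.993 between *Esrrb* and *Fgf4*. These correlations describe 9 points that share a normalization.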
